A study of Mus musculus with 17 samples.

Results

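The effect of SR9009, a synthetic agonist of REV-ERB alpha and REV-ERB beta, was measured by RNA-seq in mouse hearts 6 weeks after transverse aortic constriction. In this operation, TAC for short, the aorta is narrowed so that the left ventricle pumps against a raised pressure. The comparison sets the 3 libraries labelled TAC 6 week+SR9009 against the 3 labelled TAC 6 week+Vehicle, which are 6 of the 17 libraries of the series. Genes were matched by their identifier, and 74 of 41126 genes were left out because at least 1 of the 6 libraries carried the status HIDATA, the mark for a locus with too many fragments to count. All hearts came from C57BL/6 mice kept on normal chow under 12 h of light and 12 h of dark. Both groups had TAC, were dosed daily with the compound or its vehicle, and were taken near zeitgeber time 10, which is counted from lights on. The other 11 libraries, 4 hearts with SR9009 and 4 with vehicle 1 week after TAC and 3 hearts labelled Control, entered the statistical fit to estimate spread, and their means are given where they help to place a value. The labels give neither dose, sex nor age, nor whether the Control hearts had a sham operation, nor whether the libraries of a group are different mice. The p-values therefore reflect the spread among these libraries alone, part of which may be technical.

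REV-ERB alpha and beta, encoded by Nr1d1 and Nr1d2, are repressors that bind DNA elements built on the letters AGGTCA and recruit a corepressor complex to shut off Arntl, which encodes BMAL1, and its relatives in the circadian clock. BMAL1 with CLOCK or NPAS2 in turn drives the Per, Cry, Dbp and Nr1d genes, so the REV-ERB proteins close a loop that times fuel use and ion channel expression in the heart. Sustained pressure load is known to bring back fetal genes such as Nppa, Nppb, Acta1 and Myh7 in cardiomyocytes, to increase matrix production by fibroblasts, and to lower the expression of genes of fatty acid oxidation.

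The SR9009 libraries held 11609251, 9907991 and 13646363 fragments assigned to genes, against 14049707, 13350476 and 15809965 in the vehicle libraries. Levels below are CPM, fragments of a gene as a share of those assigned in its library with scaling between libraries, so they compare a gene between libraries and not one gene with another. Vehicle 1 stood apart from the other two vehicle libraries. Its root mean square log2 difference was 0.45 to vehicle 2 and 0.45 to vehicle 3, but 0.34, 0.39 and 0.34 to the SR9009 libraries, while vehicle 2 and vehicle 3 differed from each other by 0.32 and the SR9009 libraries among themselves by 0.33 to 0.37. Nothing in the labels sets vehicle 1 apart. Whether its label was exchanged or its heart was taken at another time of day was not tested. It is kept unless a value is said to be without it, and many genes that did not pass with it did so without it. Vehicle 1 was singled out by these same values, and fits without it rest on vehicle 2 and vehicle 3 alone for that group. Calls and p-values without vehicle 1 therefore describe how far a result depends on this library and are not evidence for a difference. The tissue label was met by its markers: the summed level of 9 measured cardiomyocyte markers was 47910, 49270 and 49990 CPM in the SR9009 hearts, against 46310, 42120 and 46230 CPM in the vehicle hearts. Of 6 atrial markers, Sln and Bmp10 were at or near 0 in all 6 libraries, and the other 4 had enough fragments to test. The atrial markers summed to 284.7, 230 and 238.5 CPM in SR9009 hearts, against 355.5, 887.9 and 778 CPM in vehicle hearts. Nppa made up nearly all of these sums.

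Of 15919 genes with enough fragments to test, 27 passed at a Benjamini-Hochberg adjusted p of 0.05 in edgeR's quasi-likelihood test, which is 0.17% of them. With SR9009, 19 rose (0.119%) and 8 fell (0.0503%). At an unadjusted p under 0.05 there were 1232 higher and 1265 lower genes, and DESeq2 called 105 higher and 154 lower at the same adjusted threshold. The 27 are 14 protein-coding genes, 8 of them lower and 6 higher, and 13 small nuclear and nucleolar RNAs, all higher. The 3 SR9009 libraries all lay above the 3 vehicle libraries for 1693 genes (10.6% of those tested) and all below for 1464 (9.2%). The number of calls turned on vehicle 1: without it, 1518 of 16095 genes passed (9.43%), 641 higher (3.98%) and 877 lower (5.45%), and these included all 27. It was 2 without SR9009 1, SR9009 2 or vehicle 2, 6 without vehicle 3, and 41 without SR9009 3. The number was 0 when only the 6 libraries were fitted, where 2413 genes had an unadjusted p under 0.05, and 0 with the library total as a covariate, where 1190 genes did. These shares over all genes are the background for the counts given for gene lists below. In bulk tissue, fewer cells of a type and less RNA per cell cannot be told apart.

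Among the 8 protein-coding genes that fell with SR9009, Angptl7, which encodes a secreted angiopoietin-like protein, had the largest change. Angptl7 (ENSMUSG00000028989.3, chr4:148495183-148500460, minus strand) stood at 4.26, 3.10 and 3.85 CPM in SR9009 hearts, against 6.22, 18.3 and 42.2 CPM in vehicle hearts. The 3 SR9009 libraries were close together and near the Control mean of 3.83 ± 0.371 CPM (SD, n = 3), the vehicle libraries were spread, with vehicle 1 nearest to SR9009, and the groups did not overlap. The log2 fold change, SR9009 over vehicle, was -2.57 ± 0.45 (SE; edgeR adjusted p = 0.0301). In fits that left out 1 of the 6 libraries it was between -3.02 without vehicle 1, where it passed, and -1.71 without vehicle 3 (adjusted p = 0.124), and it passed in none of the other five. Angptl7 lies on the other strand within the span of Mtor, whose log2 fold change was -0.10 and did not pass. The TruSeq kit of the labels keeps no record of the strand, so reads from overlapping genes cannot be told apart.

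Other genes that fell are known for roles in basement membrane, myelin and lipopolysaccharide binding. Col4a3 (ENSMUSG00000079465.3, chr1:82586921-82722059), which encodes the alpha 3 chain of type IV collagen, had 18.5, 17.6 and 16.9 CPM in SR9009 hearts, against 28.8, 34.99 and 26.02 CPM in vehicle hearts. All SR9009 libraries were below all vehicle libraries, at about the level of the Control hearts (16.6 ± 2.92 CPM, SD, n = 3), and the log2 fold change was -0.76 ± 0.12 (adjusted p = 0.0209). Col4a3 partly overlaps C430014B12Rik on the other strand, which was low, at means of 1.19 CPM with SR9009 and 1.86 CPM with vehicle. Pmp22 (ENSMUSG00000018217.7, chr11:63128982-63159547), which encodes a tetraspan membrane protein of myelin, stood at 44.6, 42.1 and 49.5 CPM in SR9009 hearts, against 58.2, 90.2 and 90.3 CPM in vehicle hearts. Vehicle 1 was again the vehicle library closest to SR9009 but still above all 3, and Pmp22 fell by 0.81 ± 0.15 on the log2 scale (adjusted p = 0.0389). Lbp, the lipopolysaccharide-binding protein, had 7.63, 7.37 and 8.68 CPM in SR9009 hearts, against 11.2, 14.99 and 13.4 CPM in vehicle hearts, with no overlap and a log2 fold change of -0.74 ± 0.14 (adjusted p = 0.0389).

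Ugp2 (ENSMUSG00000001891.11, chr11:21321138-21371201) encodes the enzyme that makes UDP-glucose, the sugar donor for glycogen. Its level was 732, 694 and 671 CPM in SR9009 hearts, against 852, 1002 and 978 CPM in vehicle hearts. The groups did not overlap, the log2 fold change was -0.43 ± 0.08 (adjusted p = 0.0356), and both groups were above the Control mean of 413 ± 26.04 CPM (SD, n = 3). Vamp3, a SNARE protein of vesicle fusion, had 68.03, 67.5 and 72.8 CPM in SR9009 hearts, against 81.7, 96.8 and 97.7 CPM in vehicle hearts, a log2 fold change of -0.41 ± 0.08 (adjusted p = 0.0399). It lies on the same strand within the span of Camta1, which had a log2 fold change of -0.25 that did not pass (adjusted p = 0.122). Ackr4, an atypical receptor that scavenges chemokines, had 39.1, 41.4 and 41.3 CPM in SR9009 hearts, against 50.2, 52.95 and 54.2 CPM in vehicle hearts, and its libraries were tight within each group, with a log2 fold change of -0.37 ± 0.07 (adjusted p = 0.0389). Ackr4 lies on the other strand within the span of Acad11, which averaged 235 CPM with SR9009 and 221 CPM with vehicle. The log2 fold change of Acad11 was 0.08 and did not pass. The protein-coding gene D430019H16Rik was low in all hearts, at 2.84, 2.13 and 1.81 CPM in SR9009 hearts, against 4.92, 5.54 and 5.49 CPM in vehicle hearts, and fell by 1.24 on the log2 scale (SE 0.23, adjusted p = 0.0389).

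Of the 6 protein-coding genes that rose with SR9009, Fign and Ccdc107 had the largest fold changes. Fign (ENSMUSG00000075324.8, chr2:63971507-64098038), which encodes a microtubule-severing ATPase, stood at 18.1, 24.2 and 21.6 CPM in SR9009 hearts, against 14.8, 8.90 and 8.76 CPM in vehicle hearts, and the log2 fold change was 0.98 ± 0.18 (adjusted p = 0.0389). Ccdc107 (ENSMUSG00000028461.7, chr4:43492900-43495921) had 506, 496 and 368 CPM in SR9009 hearts, against 223, 228 and 279 CPM in vehicle hearts, with no overlap and a log2 fold change of 0.91 ± 0.14 (adjusted p = 0.0209). Ccdc107 overlaps Rmrp, the RNA of the mitochondrial RNA-processing ribonuclease, on the other strand. Rmrp, a gene outside the naming rule that is given because of this overlap, averaged 801 CPM with SR9009 and 414 CPM with vehicle, a log2 fold change of 0.95 ± 0.23 that did not pass (adjusted p = 0.105), so the reads behind Ccdc107 may belong to either gene.

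Nav2, a neuron navigator protein that acts on the cytoskeleton, had 78.6, 109.9 and 79.1 CPM in SR9009 hearts, against 64.6, 60.1 and 54.3 CPM in vehicle hearts. For Nav2 the log2 fold change was 0.58 ± 0.11 (adjusted p = 0.0418). Ppp1r10, a nuclear regulatory subunit of protein phosphatase 1, stood at 61.3, 55.6 and 66.6 CPM in SR9009 hearts, against 48.9, 41.4 and 35.2 CPM in vehicle hearts. For Ppp1r10 the log2 fold change was 0.55 ± 0.10 (adjusted p = 0.0389). In both, every SR9009 library exceeded every vehicle library, and vehicle 1 was the highest of the vehicle libraries. The scaffold gene Magi3 was at 141, 162 and 133 CPM in SR9009 hearts, against 120.2, 91.1 and 104 CPM in vehicle hearts. For Magi3 the log2 fold change was 0.47 ± 0.09 (adjusted p = 0.0418). Magi3 partly overlaps Phtf1 on the other strand, whose log2 fold change was 0.01. Lrrtm2, which encodes a leucine-rich repeat protein of synapses, was at 36.2, 36.4 and 31.9 CPM in SR9009 hearts, against 25.7, 24.6 and 23.2 CPM in vehicle hearts. For Lrrtm2 the log2 fold change was 0.51 ± 0.08 (adjusted p = 0.0209). It lies on the other strand within the span of Ctnna1, whose log2 fold change was 0.01. Of the 14 protein-coding genes, only Col4a3 and Ccdc107 passed in as many as 3 of the 6 fits that each left out 1 of these libraries; all 14 kept their sign in all 6.

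**Figure D1:**
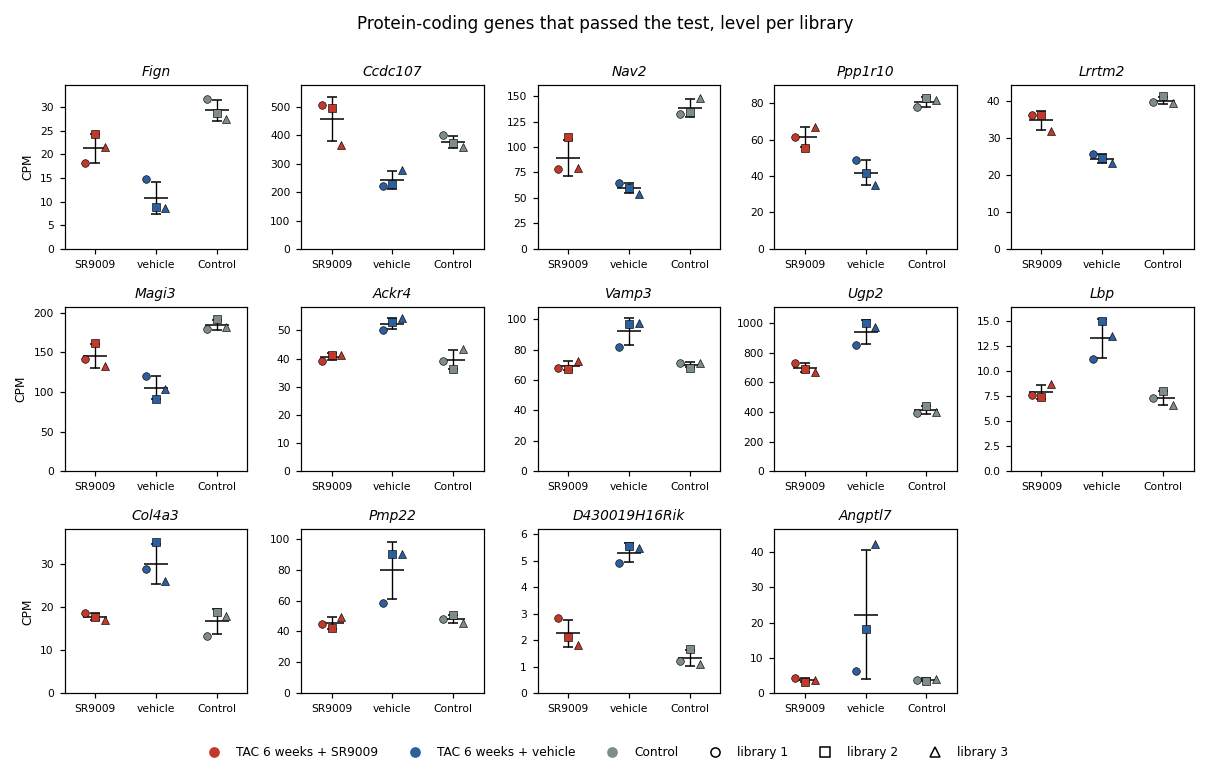
Level in CPM, on linear axes, of the 14 protein-coding genes that passed, with SR9009 left, vehicle in the middle and Control right; each marker is 1 library (circle, square and triangle for libraries 1, 2 and 3) and bars give mean ± SD. In every panel the SR9009 libraries sit on one side of all vehicle libraries, as for Angptl7, at 3.10 to 4.26 CPM with SR9009 and 6.22 to 42.2 CPM with vehicle.

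The 13 other RNAs that rose were small RNAs annotated as small nucleolar, small Cajal body or spliceosomal small nuclear RNAs. Small nucleolar RNAs guide chemical modification of ribosomal RNA, those of the box C/D kind for methylation and those of the box H/ACA kind for pseudouridine, and small Cajal body RNAs do the same for the RNAs of the spliceosome. Most are cut out of the introns of host genes. The sequences of 4 members are shown because they are the pair whose calls held in every fit that left out 1 library and the 2 small Cajal body RNAs that passed, a choice made after their values were seen. They are the annotated transcripts on the GRCm38 build, 5′ to 3′. Gm26448 lies at chr9:120129351-120129553, plus strand, within Rpsa, Gm24119 at chr10:91118291-91118536, minus strand, within Slc25a3, and Scarna6 at chr1:87784556-87784820 and Gm25395 at chr1:87776938-87777209, both plus strand, within Atg16l1. Capitals mark the letters ACA in the last 8 bases, which end box H/ACA RNAs, or TGATGA in the first 25 bases and CTGA in the last 20, the letters of boxes C and D.
Gm26448: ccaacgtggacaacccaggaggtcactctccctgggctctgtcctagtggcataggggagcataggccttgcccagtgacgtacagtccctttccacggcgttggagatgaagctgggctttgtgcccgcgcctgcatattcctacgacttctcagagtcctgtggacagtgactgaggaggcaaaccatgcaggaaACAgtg
Gm24119: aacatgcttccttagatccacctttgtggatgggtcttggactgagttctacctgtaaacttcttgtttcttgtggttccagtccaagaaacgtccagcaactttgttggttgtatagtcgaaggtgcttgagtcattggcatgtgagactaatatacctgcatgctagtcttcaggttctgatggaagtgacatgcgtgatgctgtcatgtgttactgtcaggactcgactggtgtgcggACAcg
Scarna6: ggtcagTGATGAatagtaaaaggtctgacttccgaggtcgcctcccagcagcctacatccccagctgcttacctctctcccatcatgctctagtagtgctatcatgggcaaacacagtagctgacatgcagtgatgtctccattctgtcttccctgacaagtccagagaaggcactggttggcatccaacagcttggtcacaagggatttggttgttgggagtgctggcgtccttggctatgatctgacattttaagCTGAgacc
Gm25395: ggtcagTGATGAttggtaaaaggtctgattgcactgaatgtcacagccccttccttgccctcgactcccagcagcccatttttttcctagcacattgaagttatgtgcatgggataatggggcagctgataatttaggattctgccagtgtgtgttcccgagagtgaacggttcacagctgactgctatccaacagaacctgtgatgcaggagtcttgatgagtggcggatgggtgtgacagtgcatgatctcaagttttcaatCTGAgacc
The first pair ends in ACA near the 3′ end, while Scarna6 and Gm25395 begin and end with boxes C and D. These letter matches describe the sequences and do not by themselves assign a class.

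Gm26448 had 27.1, 28.1 and 21.96 CPM in SR9009 hearts, against 12.6, 13.98 and 13.7 CPM in vehicle hearts. All SR9009 libraries were above all vehicle libraries and lay around the Control mean of 22.9 ± 2.69 CPM (SD, n = 3), and the log2 fold change was 0.93 ± 0.12 (adjusted p = 0.00286). Gm24119 stood at 54.6, 66.7 and 51.2 CPM in SR9009 hearts, against 30, 31 and 27.2 CPM in vehicle hearts, a log2 fold change of 0.97 ± 0.12 (adjusted p = 0.00286), again with SR9009 around the Control mean of 52.2 ± 2.61 CPM. These were the only genes of the 27 that passed in every fit leaving out 1 of the 6 libraries. Their host genes did not pass: Rpsa, a ribosomal protein gene, had a log2 fold change of 0.01, and Slc25a3, the mitochondrial phosphate carrier gene, one of 0.15.

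Scarna6 had 22.1, 17.2 and 19.9 CPM in SR9009 hearts, against 11.1, 10.5 and 12.98 CPM in vehicle hearts. For Scarna6 the log2 fold change was 0.78 ± 0.13 (adjusted p = 0.0211). Gm25395 from the same host had 52.8, 44.8 and 46.3 CPM in SR9009 hearts, against 28.3, 22.3 and 33.6 CPM in vehicle hearts. For Gm25395 the log2 fold change was 0.77 ± 0.14 (adjusted p = 0.0389). Neither pair of groups overlapped. The shared host Atg16l1, an autophagy gene, had a log2 fold change of 0.03 that did not pass. The log2 fold changes of the remaining 9 ranged between 0.61 for Gm23262, within the translation factor gene Eif4g2, and 1.30 for Gm22422, within Trmt10c. They also include Gm25541 (log2 fold change 1.28), Gm26447 (log2 fold change 1.07), Gm22486 (log2 fold change 1.05), Snora68 (log2 fold change 0.94), Gm24265 (log2 fold change 0.89), Gm23442 (log2 fold change 0.79) and Rnu3a (log2 fold change 0.83), a U3 RNA with near-identical copies in the genome whose value is therefore uncertain. Further coding genes that hold one of the 13 on the same strand are Eif4a2, Eif4g2, Prrc2a, Ptcd3 and Trmt10c. Together with the 3 hosts above they had log2 fold changes of -0.03 to 0.15, and none of these 8 passed.

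The difference was not limited to the members that passed. Of 129 small RNAs of these 3 kinds that could be tested, 13 rose (10.1%) and 0 fell, 125 had a log2 fold change above 0, and in 75 every SR9009 library lay above every vehicle library. Of all genes tested, 0.119% rose, and 10.6% had every SR9009 library above every vehicle library. At an unadjusted p under 0.05, 83 were higher and 0 lower, and DESeq2 called 34, all higher. Their median log2 fold change was 0.80, against 0.00 over all genes tested, and 0.79 without vehicle 1. The summed level of the 129 was 2198, 2278 and 1714 CPM in the SR9009 hearts, against 1306, 1320 and 1357 CPM in the vehicle hearts, so vehicle 1 was no exception here. Means were 2063 ± 305 CPM with SR9009 and 1328 ± 26.7 CPM with vehicle at 6 weeks (SD, n = 3 each), 1484 ± 130 CPM with SR9009 and 1661 ± 157 CPM with vehicle at 1 week (SD, n = 4 each), and 1921 ± 90.7 CPM in Control hearts (SD, n = 3). Among SR9009 libraries the sums fell as totals rose (9907991, 11609251 and 13646363 fragments), but not among vehicle libraries. With the library total as a covariate in edgeR, 0 of the 13 passed and all kept their sign. The log2 fold change of Gm26447 went from 1.07 to 0.63 (adjusted p = 0.226) and that of Gm26448 from 0.93 to 0.82 (0.0588). Those of Scarna6, Gm23442 and Gm25395 rose slightly. What part library depth has in the difference was not tested. The kit named in the labels enriches polyadenylated RNA, and most mature RNAs of these kinds carry no poly(A) tail, so the values count only the part that entered the libraries. By kind, 9 of 98 small nucleolar RNAs, 2 of 13 small Cajal body RNAs and 2 of 18 small nuclear RNAs passed. Tested nucleolar RNAs with both box C and box D letters had a median of 0.82 (n = 19), those ending in ACA one of 0.81 (n = 66), and those with neither one of 0.82 (n = 13), so the classes did not separate. Among all 1507 nucleolar RNAs annotated, 20.6%, 46.0% and 33.4% fall into these 3 classes.

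**Figure D2:**
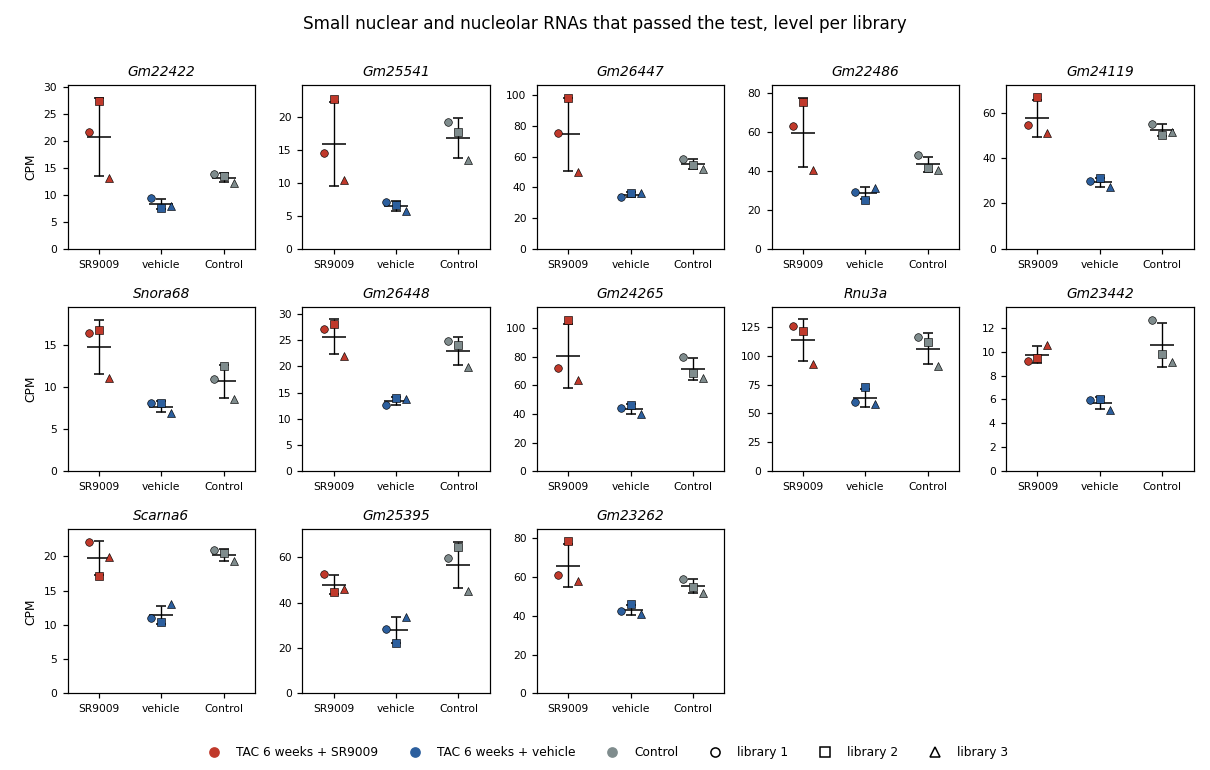
Level in CPM, on linear axes, of the 13 small RNAs that passed, with SR9009 left, vehicle in the middle and Control right; markers are libraries (circle, square and triangle for 1, 2 and 3) and bars give mean ± SD. All SR9009 libraries lie above all vehicle libraries in each panel, as for Scarna6, at 17.2 to 22.1 CPM with SR9009 and 10.5 to 12.98 CPM with vehicle.

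Clock genes include the best known REV-ERB targets, and vehicle 1 lay within the SR9009 range for 4 of the 20 and, for others such as Arntl, Per2 and Dbp, beyond it on the side away from vehicles 2 and 3. None of the 20 clock genes passed, and their median log2 fold change was -0.33, with 15 of 20 below 0. At an unadjusted p under 0.05 in edgeR, 1 was higher and 9 were lower, and DESeq2 called 1 lower. Arntl, the main REV-ERB target, stood at 40.4, 27.01 and 32.5 CPM in SR9009 hearts, against 42.1, 3.51 and 2.68 CPM in vehicle hearts. The SR9009 libraries and vehicle 1 were high and vehicles 2 and 3 were low, so the groups overlapped, and the log2 fold change was 1.05 ± 0.60 (adjusted p = 0.419). Without vehicle 1 it was 3.43 (adjusted p = 4.15e-06), with Control hearts at 10.96 ± 4.39 CPM (SD, n = 3).

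Per2, Ciart and Dbp, whose genes are driven by BMAL1, had the mirror image of Arntl. Per2 was at 7.54, 9.39 and 9.06 CPM in SR9009 hearts, against 2.24, 57.95 and 66.1 CPM in vehicle hearts. For Per2 the log2 fold change was -2.28 ± 0.63 (adjusted p = 0.117). Ciart, a repressor within the clock, was at 3.90, 3.52 and 4 CPM in SR9009 hearts, against 3.83, 17.6 and 18.1 CPM in vehicle hearts. For Ciart the log2 fold change was -1.78 ± 0.43 (adjusted p = 0.104). The output factor Dbp was at 10.3, 17.9 and 15.6 CPM in SR9009 hearts, against 7.74, 35.8 and 39.2 CPM in vehicle hearts. For Dbp the log2 fold change was -0.92 ± 0.37 (adjusted p = 0.236). In all 3 genes vehicles 2 and 3 were above every SR9009 library, while vehicle 1 was below or within the SR9009 range. Leaving vehicle 1 out gave log2 fold changes of -2.85 for Per2, -2.23 for Ciart and -1.38 for Dbp, each of which passed. Over the list, 3 genes then passed higher (Arntl, Clock and Npas2, the genes of the activating arm) and 13 lower, among them Per1, Per2, Per3, Cry1, Cry2, Nr1d2, Tef and Hlf, beside shares of 3.98% and 5.45% over all genes.

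The genes of the receptors themselves did not pass. Nr1d1, encoding REV-ERB alpha, was at 23.9, 43.3 and 34.3 CPM in SR9009 hearts, against 23.6, 35.2 and 33.9 CPM in vehicle hearts, which overlapped almost fully (log2 fold change 0.12 ± 0.18, adjusted p = 0.785), and below the Control mean of 60.1 ± 4.79 CPM in every library. Nr1d2, encoding REV-ERB beta, was at 134, 192 and 179 CPM in SR9009 hearts, against 107, 269 and 299.7 CPM in vehicle hearts (log2 fold change -0.42 ± 0.24, adjusted p = 0.426), where vehicle 1 was the lowest library and vehicles 2 and 3 the highest. The repressors Cry1 and Nfil3 and the activator Npas2 are further known REV-ERB targets. Cry1 was at 13.3, 9.61 and 10.5 CPM in SR9009 hearts, against 14.02, 14.4 and 17.6 CPM in vehicle hearts, the one clock gene without overlap (log2 fold change -0.46 ± 0.13, adjusted p = 0.117, and 0.0208 without vehicle 1). Nfil3 was at 17.2, 12.7 and 14.2 CPM in SR9009 hearts, against 17.5, 16.9 and 19 CPM in vehicle hearts. For Nfil3 the log2 fold change was -0.28 ± 0.11 (adjusted p = 0.239). Npas2 was at 7.63, 7.47 and 9.43 CPM in SR9009 hearts, against 10.9, 5.08 and 3.68 CPM in vehicle hearts. For Npas2 the log2 fold change was 0.33 ± 0.27 (adjusted p = 0.598). Npas2 thus had the order of Arntl, with vehicle 1 highest, whereas Cry1 was lower in all SR9009 hearts and Nfil3 in all but SR9009 1.

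The promoter windows of Arntl and Nfil3 are shown because both genes are known REV-ERB targets whose 6-week values differ in pattern. The windows run 250 bases before to 50 after the annotated start, from RefSeq on GRCm38.p6: Arntl at chr7:113207261-113207560, plus strand, and Nfil3 at chr13:52980990-52981289, minus strand. Capitals mark AGGTCA, or TGACCT where it lies on the other strand.
Arntl: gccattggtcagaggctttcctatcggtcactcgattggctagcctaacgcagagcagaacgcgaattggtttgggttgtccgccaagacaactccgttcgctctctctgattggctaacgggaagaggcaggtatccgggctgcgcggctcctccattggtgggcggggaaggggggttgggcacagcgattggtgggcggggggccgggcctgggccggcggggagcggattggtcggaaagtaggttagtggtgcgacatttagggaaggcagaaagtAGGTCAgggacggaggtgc
Nfil3: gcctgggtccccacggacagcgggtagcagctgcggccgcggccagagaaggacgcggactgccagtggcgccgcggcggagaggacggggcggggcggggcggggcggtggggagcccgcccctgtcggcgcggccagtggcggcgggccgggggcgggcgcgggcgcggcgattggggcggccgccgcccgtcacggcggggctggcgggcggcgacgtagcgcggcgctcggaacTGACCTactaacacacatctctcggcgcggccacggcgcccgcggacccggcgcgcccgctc
The letters begin at base 282 of the Arntl window and at base 239 of the Nfil3 window, counted from the 5′ end, so both lie close to the start of transcription. A second annotated Arntl window, at chr7:113207215-113207514, has no match, and the windows of Npas2, Cry1, Nr1d1 and Dbp have none, while that of Nr1d2, 1 of 3 of Clock and 1 of 2 of Per1 hold the letters, from bases 174, 132 and 114. AGGTCA on either strand is found in 5340 of 32851 promoter windows of this length (16.3%), and a match is a description of the letters, not a site.

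**Figure D3:**
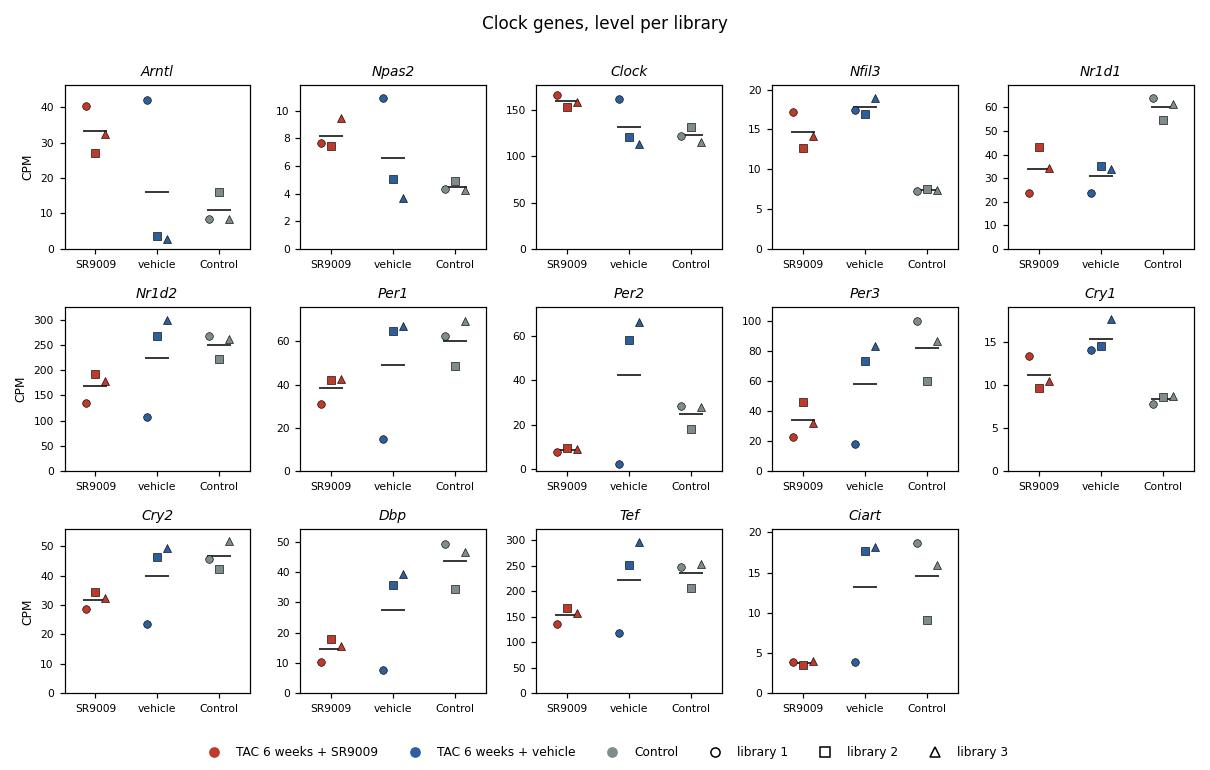
Level in CPM, on linear axes, of 14 clock genes, with SR9009 left, vehicle in the middle and Control right; circle, square and triangle are libraries 1, 2 and 3 and lines are means. Vehicle 1 (circle) lies among or beyond the SR9009 libraries for Arntl (42.1 CPM, against 3.51 and 2.68 CPM in the other two vehicle libraries) and for Per2 (2.24 CPM, against 58.0 and 66.1 CPM).

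Of 12 genes described as repressed by REV-ERB in other tissues, 11 could be tested and 0 passed; the median log2 fold change was 0.27. In this list 3 genes were higher and 3 lower at an unadjusted p under 0.05, and DESeq2 called 0. The cytokine Il1b was low in all hearts, at 3.02, 1.60 and 1.96 CPM in SR9009 hearts, against 1.30, 0.937 and 0.0669 CPM in vehicle hearts. For Il1b the log2 fold change was 1.54 ± 0.52 (adjusted p = 0.175). Il1b was higher in all SR9009 libraries than in any vehicle library. Without vehicle 1, 5 of the 11 passed higher, Il1b among them (adjusted p = 0.0322), and 2 lower, beside shares of 3.98% and 5.45% over all genes. Arntl, Npas2 and Clock among the higher and Cry1 among the lower are also counted in the clock list above.

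The fetal and hypertrophy genes were lower on average with SR9009, but none of the 15 tested passed. All 15 had log2 fold changes below 0, beside 7882 of 15919 genes in all, with a median of -0.44. In 6 of them all SR9009 libraries lay below all vehicle libraries, as in 9.2% of all genes. Unadjusted p-values under 0.05 were found for 8 of the 15, and DESeq2 called 2, all of them lower. Acta1, skeletal alpha actin of the fetal program, was at 1629, 1246 and 1518 CPM in SR9009 hearts, against 2689, 4815 and 3593 CPM in vehicle hearts. For Acta1 the log2 fold change was -1.34 ± 0.34 (adjusted p = 0.110). Its groups did not overlap, and both were far above the Control mean of 128 ± 33.8 CPM. Nppa, the atrial natriuretic peptide gene, was at 275, 222 and 229 CPM in SR9009 hearts, against 345, 867 and 751 CPM in vehicle hearts. For Nppa the log2 fold change was -1.44 ± 0.50 (adjusted p = 0.183). Nppb, the B-type peptide gene, was at 495, 400.2 and 341 CPM in SR9009 hearts, against 519.5, 579 and 576 CPM in vehicle hearts. For Nppb the log2 fold change was -0.44 ± 0.17 (adjusted p = 0.214). Both sets of SR9009 libraries were below all vehicle libraries and above the Control means of 69.8 ± 25.2 CPM for Nppa and 108 ± 6.58 CPM for Nppb.

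Myh7, the beta myosin heavy chain gene, overlapped between groups, at 794, 660.2 and 1258 CPM in SR9009 hearts, against 552, 2714 and 2956 CPM in vehicle hearts (log2 fold change -1.20 ± 0.43, adjusted p = 0.194), because vehicle 1 was the lowest of the 6. The stress-induced titin-binding factor Ankrd1 did not overlap, at 2998, 2489 and 2851 CPM in SR9009 hearts, against 3614, 5501 and 5095 CPM in vehicle hearts. For Ankrd1 the log2 fold change was -0.77 ± 0.26 (adjusted p = 0.175). Xirp1, a protein of intercalated discs, was at 355, 344 and 322 CPM in SR9009 hearts, against 359, 422 and 451 CPM in vehicle hearts. For Xirp1 the log2 fold change was -0.27 ± 0.08 (adjusted p = 0.131). Rcan1, a calcineurin target, was at 239, 127 and 189.7 CPM in SR9009 hearts, against 256, 205 and 171 CPM in vehicle hearts, with overlap (log2 fold change -0.18 ± 0.21, adjusted p = 0.723). In a fit without vehicle 1, Nppa, Myh7, Acta1, Ankrd1, Xirp1 and Des passed as lower, 6 of 15, while Nppb and Rcan1 did not. The share over all genes in that fit was 5.45% lower. The genes of calcineurin and MEF2 signalling upstream had a median of 0.04 over 21 members, with 0 passing, 5 higher at an unadjusted p under 0.05 and 1 called by DESeq2. Without vehicle 1, 4 passed as higher and 2 as lower, beside 3.98% and 5.45% of all genes. The smallest p-values in this list were those of Hdac9 and Hdac5. Hdac9, a repressor of MEF2, was at 54.7, 55.8 and 48.5 CPM in SR9009 hearts, against 50.2, 33.2 and 33.2 CPM in vehicle hearts. For Hdac9 the log2 fold change was 0.45 (adjusted p = 0.115, and 9.15e-05 without vehicle 1). Hdac5, of the same class, was at 85.1, 86.2 and 79.8 CPM in SR9009 hearts, against 67.7, 53.6 and 64.01 CPM in vehicle hearts. For Hdac5 the log2 fold change was 0.44 (adjusted p = 0.117, and 0.0274 without vehicle 1).

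Matrix genes had the lowest median log2 fold change of the 20 groups of genes of one function. Of the 43 genes, 40 had a log2 fold change below 0, beside 7882 of 15919 genes in all. All SR9009 libraries lay below all vehicle libraries in 22, as in 9.2% of all genes. The median was -0.62, and 0 passed. An unadjusted p under 0.05 was found for 22 of the 43 and DESeq2 called 3, all lower. Comp, cartilage oligomeric matrix protein, was at 7.72, 2.24 and 8.38 CPM in SR9009 hearts, against 9.76, 23.7 and 51.2 CPM in vehicle hearts. For Comp the log2 fold change was -2.17 ± 0.46 (adjusted p = 0.0736). Cilp, cartilage intermediate layer protein, stood at 97.5, 74.9 and 102 CPM in SR9009 hearts, against 138, 373 and 334 CPM in vehicle hearts. For Cilp the log2 fold change was -1.62 ± 0.39 (adjusted p = 0.105). Postn, periostin, was at 275, 206 and 226 CPM in SR9009 hearts, against 362, 1053 and 833 CPM in vehicle hearts. For Postn the log2 fold change was -1.67 ± 0.58 (adjusted p = 0.183). For these 3 genes the SR9009 libraries were all lower than vehicle 1, which in turn was far below vehicles 2 and 3.

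Ccn2, connective tissue growth factor, was at 124, 112 and 132 CPM in SR9009 hearts, against 117, 407 and 388 CPM in vehicle hearts. For Ccn2 the log2 fold change was -1.31 ± 0.42 (adjusted p = 0.160). Timp3, an inhibitor of matrix proteases, was at 206, 199.7 and 218 CPM in SR9009 hearts, against 172, 568 and 663 CPM in vehicle hearts. For Timp3 the log2 fold change was -1.17 ± 0.28 (adjusted p = 0.104). Here vehicle 1 lay within or below the SR9009 libraries. The fibrillar collagens differed less: Col1a1 was at 58.6, 72.5 and 58.3 CPM in SR9009 hearts, against 71.6, 119.7 and 97.2 CPM in vehicle hearts (log2 fold change -0.61, adjusted p = 0.423). Col3a1 was at 558, 543 and 539.6 CPM in SR9009 hearts, against 731, 881 and 698 CPM in vehicle hearts. For Col3a1 the log2 fold change was -0.49 (adjusted p = 0.461). Without vehicle 1, 13 of the 43 passed, all lower, among them Timp3 (adjusted p = 8.9e-09), Comp (0.000226), Cilp (0.00240) and Postn (0.0409). In that fit 5.45% of all genes passed as lower.

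**Figure D4:**
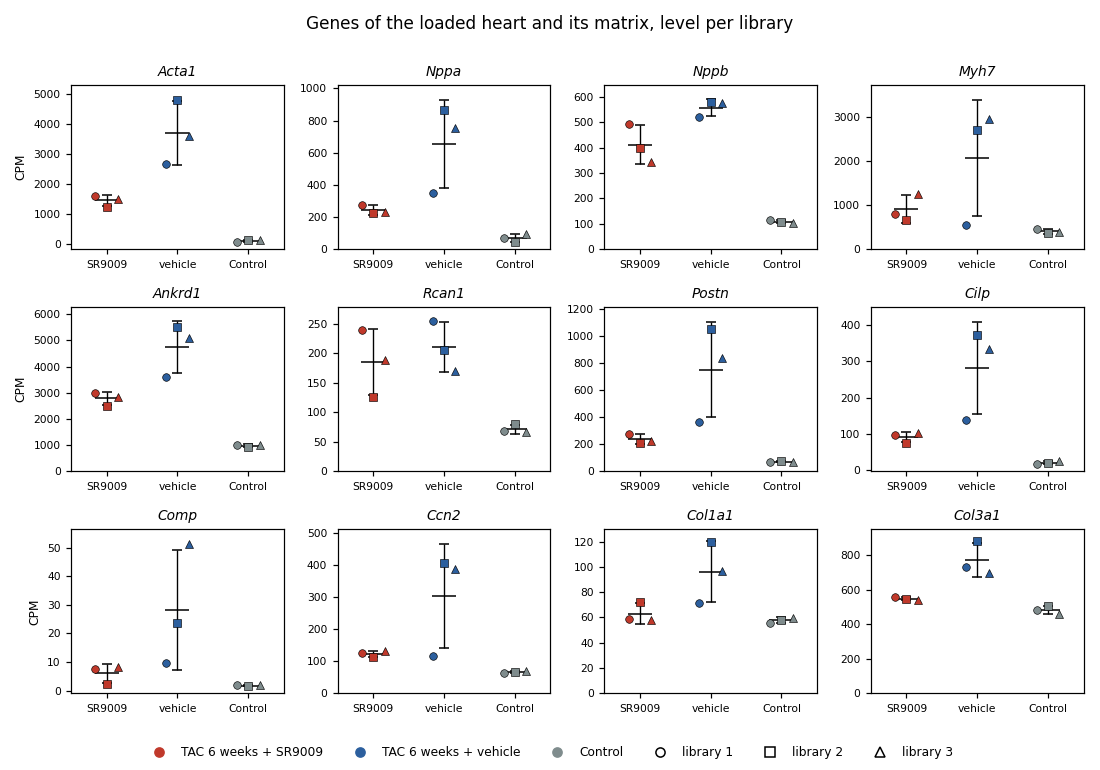
Level in CPM, on linear axes, of 12 fetal, hypertrophy and matrix genes, with SR9009 left, vehicle in the middle and Control right; circle, square and triangle are libraries 1, 2 and 3 and bars are mean ± SD. Acta1 separates the groups (1246 to 1629 CPM with SR9009, 2689 to 4815 CPM with vehicle), whereas Myh7 does not, with vehicle 1 at 552 CPM.

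Markers of the cell types of the heart are given beside these groups. The 10 macrophage markers all had log2 fold changes below 0 (median -0.33), and 0 passed. In 9 of them all SR9009 libraries lay below all vehicle libraries, as in 9.2% of all genes. The summed level of the 10 was 581, 507 and 538 CPM in SR9009 hearts, against 649, 727 and 672 CPM in vehicle hearts. At an unadjusted p under 0.05, 6 of them were lower, DESeq2 called 2, and without vehicle 1 edgeR called 3. The 8 fibroblast markers summed to 2531, 2150 and 2626 CPM with SR9009, against 2461, 2511 and 3068 CPM with vehicle, so these sums overlapped (median -0.22, 0 passing). Whether the share of macrophages or fibroblasts has a part in the matrix values was not tested. Medians were 0.14 for 9 cardiomyocyte, 0.08 for 8 endothelial, 0.10 for 9 smooth muscle and pericyte, -0.23 for 5 lymphatic endothelial and 0.25 for 5 red cell markers, with 0 passing in each. Across these 5 lists, 0 to 3 members a list in either direction had an unadjusted p under 0.05, and DESeq2 called 1 cardiomyocyte and 1 lymphatic marker. Without vehicle 1, edgeR called 1 cardiomyocyte and 4 endothelial markers higher, 1 fibroblast and 2 atrial markers lower, and 1 lymphatic marker each way. In that fit 3.98% of all genes were called higher and 5.45% lower. For Lyve1, Pdpn and the other lymphatic markers the sums were 210, 218 and 212 CPM with SR9009, against 207, 191 and 180.0 CPM with vehicle. Markers of other sources were scarce: 3 of 7 neutrophil, 6 of 9 T and B lymphocyte, 2 of 7 adipocyte, 4 of 7 Schwann and neuronal and 1 of 8 skeletal muscle markers had enough fragments to test, and 0 of them passed. The 6 mesothelial markers had a median of 0.37, with 0 passing. The 4 atrial myocyte markers tested had a median of -0.89, with Nppa making up nearly all of their summed level, and 0 passing.

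Genes of fatty acid oxidation were on average slightly higher with SR9009. All 29 had a log2 fold change above 0, beside 8037 of 15919 genes in all, with a median of 0.23. In 21 every SR9009 library lay above every vehicle library, as in 10.6% of all genes. None passed in edgeR with or without vehicle 1 or in DESeq2, and 4 had an unadjusted p under 0.05. Cpt1a, the liver-type carnitine palmitoyltransferase that admits fatty acids to mitochondria, was at 75.2, 92.02 and 83.01 CPM in SR9009 hearts, against 68.4, 76.6 and 69.4 CPM in vehicle hearts. For Cpt1a the log2 fold change was 0.22 ± 0.08 (adjusted p = 0.180). The fatty acid transporter Slc27a1 was at 103, 117 and 106 CPM in SR9009 hearts, against 83.5, 67.4 and 86.9 CPM in vehicle hearts. For Slc27a1 the log2 fold change was 0.45 ± 0.17 (adjusted p = 0.205). Pdk4, the kinase that turns off pyruvate dehydrogenase, varied more within groups than between them, at 572, 786 and 431 CPM in SR9009 hearts, against 405, 594 and 468 CPM in vehicle hearts. For Pdk4 the log2 fold change was 0.29 ± 0.32 (adjusted p = 0.706). Oxidative phosphorylation genes had the same direction and a smaller size: all 30 were above 0, the median was 0.12, 14 did not overlap, 0 passed with or without vehicle 1 or in DESeq2, and 1 had an unadjusted p under 0.05. The smallest p-values were those of Cox5a (log2 fold change 0.28, adjusted p = 0.147) and Cox5b (log2 fold change 0.19, adjusted p = 0.359), both subunits of cytochrome c oxidase.

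Ppargc1a, the coactivator that drives both groups of genes, had a log2 fold change of the opposite sign. It was at 149, 172 and 169 CPM in SR9009 hearts, against 133, 477 and 452 CPM in vehicle hearts. The SR9009 libraries and vehicle 1 were low and vehicles 2 and 3 high, with a log2 fold change of -1.12 ± 0.30 (adjusted p = 0.112) that became -1.52 (adjusted p = 3.98e-06) without vehicle 1. The 21 PPAR, PGC-1 and ERR regulators together had a median of 0.01 and 0 passing (3 higher and 2 lower at an unadjusted p under 0.05, 0 in DESeq2), and without vehicle 1 Ppargc1a and Pparg were the members that passed, both lower. In that fit 5.45% of all genes passed as lower.

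Glucose use genes had a median of -0.09 over 26 members, with 10 that did not overlap and lay lower, 2 that lay higher, and 0 passing. The shares without overlap over all genes were 9.2% lower and 10.6% higher. At an unadjusted p under 0.05, 1 was higher and 7 were lower, and DESeq2 called 1. Without vehicle 1, 1 passed as higher and 2 as lower, beside 3.98% and 5.45% of all genes. Gapdh, of glycolysis, was at 499, 495 and 533 CPM in SR9009 hearts, against 554, 576 and 603 CPM in vehicle hearts. For Gapdh the log2 fold change was -0.18 ± 0.06 (adjusted p = 0.141, and 0.0291 without vehicle 1). Pfkfb1, which sets the level of a glycolytic activator, was at 9.31, 12.6 and 8.98 CPM in SR9009 hearts, against 7.45, 2.19 and 4.21 CPM in vehicle hearts. For Pfkfb1 the log2 fold change was 1.14 ± 0.37 (adjusted p = 0.155, and 0.0123 without vehicle 1). Both genes had no overlap between groups, in opposite directions. Branched-chain amino acid breakdown genes had a median of 0.16, with 18 of 19 above 0 and 0 passing. Ppm1k, the phosphatase that switches on the branched-chain ketoacid dehydrogenase, was at 264, 292 and 272 CPM in SR9009 hearts, against 232, 166 and 198 CPM in vehicle hearts. For Ppm1k the log2 fold change was 0.47 (adjusted p = 0.261). The cytosolic transaminase Bcat1 (log2 fold change -0.85, adjusted p = 0.311) and the mitochondrial Bcat2 (log2 fold change 0.12, adjusted p = 0.507) did not pass. Genes of NAD synthesis and use had a median of 0.08 over 19 members and 0 passing. In the branched-chain list 1 gene was higher and 1 lower at an unadjusted p under 0.05, in the NAD list 1 was higher, and DESeq2 called 0 in both. Without vehicle 1, 1 NAD gene passed as higher and 0 of the branched-chain genes did. Nampt, the salvage enzyme, was at 343, 378 and 327 CPM in SR9009 hearts, against 301, 309 and 369 CPM in vehicle hearts (log2 fold change 0.10 ± 0.16, adjusted p = 0.813). Nadk2 had a log2 fold change of 0.37 (adjusted p = 0.227), and Bst1 one of -0.56 (adjusted p = 0.330).

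Contractile and ion handling genes had a median of 0.17 over 24 members, with 22 above 0, 11 that lay higher without overlap, and 0 passing. Among all genes, 8037 of 15919 were above 0 and 10.6% lay higher without overlap. Of the 24 members 7 were higher at an unadjusted p under 0.05, and DESeq2 called 1. Ryr2, the calcium release channel, was at 6555, 7202 and 6542 CPM in SR9009 hearts, against 5946, 4677 and 5033 CPM in vehicle hearts. For Ryr2 the log2 fold change was 0.37 ± 0.11 (adjusted p = 0.125). Kcnj2, an inward rectifier potassium channel, was at 112, 117 and 110.1 CPM in SR9009 hearts, against 105, 69.4 and 63.6 CPM in vehicle hearts. For Kcnj2 the log2 fold change was 0.51 ± 0.16 (adjusted p = 0.141). Both were higher in every SR9009 library, and vehicle 1 lay between SR9009 and the other vehicle libraries. Without vehicle 1 they passed, as did Kcnd3 and Gja1, 4 of 24 members. In that fit 3.98% of all genes passed as higher. Atp2a2, the calcium pump SERCA2, was at 14950, 16820 and 15970 CPM in SR9009 hearts, against 14870, 13620 and 14140 CPM in vehicle hearts. For Atp2a2 the log2 fold change was 0.16 ± 0.14 (adjusted p = 0.603). Myh6 carried the HIDATA status and was not measured here.

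**Figure D5:**
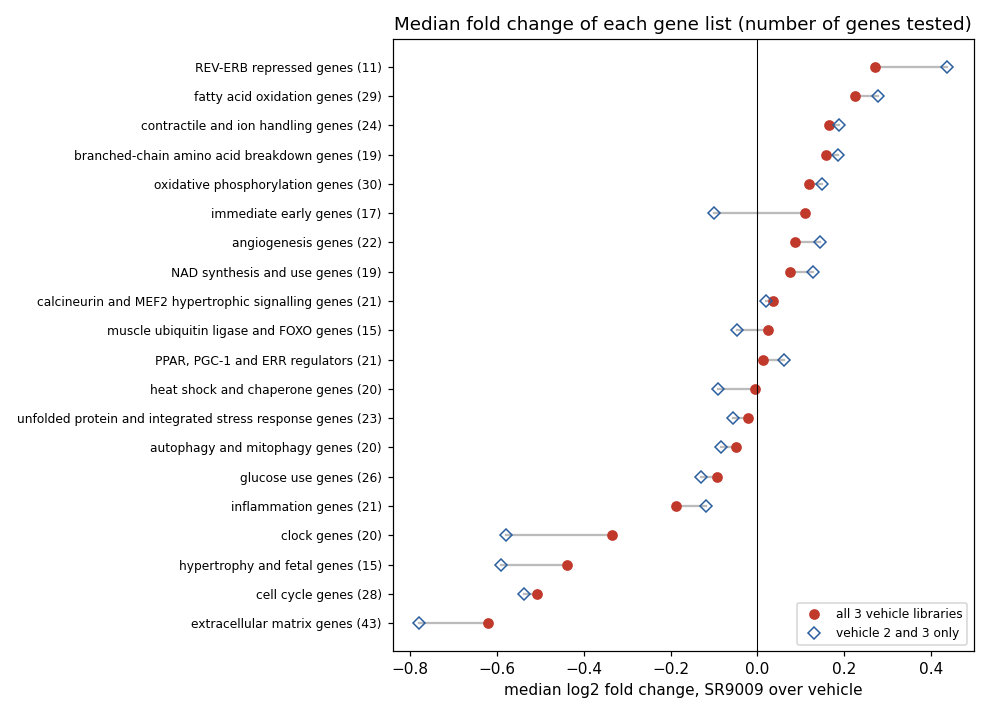
Median log2 fold change, SR9009 over vehicle at 6 weeks, of each of 20 gene groups, with the number of genes tested in brackets; filled circles use all 3 vehicle libraries and open diamonds leave out vehicle 1. The fatty acid oxidation and oxidative phosphorylation groups lie above 0 (medians 0.23 and 0.12) and the matrix and hypertrophy groups below (medians -0.62 and -0.44), and the immediate early group changes sign, at 0.11 with vehicle 1 and -0.10 without it.

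Whether the SR9009 effect at 6 weeks differed from that at 1 week was tested in the same fit as the difference between the 2 contrasts. It did for 19 of 15931 genes (0.119%), 15 with a higher and 4 with a lower fold change at 6 weeks. Gm26448 averaged 17.4 ± 1.84 CPM with SR9009 and 21.7 ± 1.64 CPM with vehicle at 1 week (SD, n = 4 each), against 25.7 ± 3.28 CPM with SR9009 and 13.4 ± 0.744 CPM with vehicle at 6 weeks (SD, n = 3 each). The difference of log2 fold changes was 1.25 ± 0.15 (adjusted p = 0.00381). Ugp2 had the opposite signs: 669 ± 20 CPM with SR9009 and 608 ± 48.7 CPM with vehicle at 1 week, and 699 ± 30.9 CPM with SR9009 and 944 ± 80.4 CPM with vehicle at 6 weeks, a difference of -0.57 ± 0.10 (adjusted p = 0.0365). None of the genes named above from the clock, hypertrophy, matrix or fuel use lists, which do not hold Ugp2, was among the 19. Without vehicle 1, several of these list genes passed in the same test, with differences of 4.29 for Arntl (adjusted p = 6.73e-06), -3.67 for Per2 (7.18e-07), -1.88 for Timp3 (2.83e-08), -1.85 for Ppargc1a (1.22e-05) and -1.81 for Myh7 (0.00756), so the answer for them turns on that library. The count was 0 with the library total as a covariate, where 552 genes had an unadjusted p under 0.05, and 957 without vehicle 1.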

How the data were processed

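The authors deposited estimated counts of fragments per gene and library, which are not normalized between libraries and, per the file headers, stand in the read-group layout of Cuffdiff. Reads were placed on mm10, as the submitters' processing notes list it. For the aligner, the counting step and the gene models, the entry is not given in the sources used here. The labels' protocols give Trizol extraction and TruSeq libraries from 1 ug of total RNA. Estimated counts were rounded to whole numbers. The members and gene lists were chosen with earlier results of these data known.

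Genes passing filterByExpr (25133 of 41052 removed) were fitted over all 17 libraries with 1 mean per group, TMM scaling and edgeR 4.0.16 (quasi-likelihood test, R 4.3.3, limma 3.58.1), with p-values adjusted by Benjamini-Hochberg over all genes tested. SE values are on the log2 scale. CPM used TMM-scaled library sizes. The typical coefficient of biological variation was 0.103 with 12 residual degrees of freedom. The code was tested on simulated data. Named are all genes that passed, for each function list the 2 members of smallest p, and set clock, hypertrophy, matrix and metabolism genes; others are said to fall outside this rule, and 1 gene that the rule names is not reported here. Marker and function lists are described by counts and medians alone. DESeq2 1.42.0, other filters and scalings, voom weights, a replicate block, 6 libraries alone, a library total covariate and leaving out each library were tried. Gene types, positions and small RNA sequences came from GENCODE M21 (GRCm38), which gave a symbol for 40252 of 41126 identifiers.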

Additional observations from a re-analysis of the deposited data

Results flagged for a closer look

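The genes below are the named genes for which the SR9009 effect at 6 weeks differed from that at 1 week in edgeR's test of the difference. Others of the 19 that passed fall outside the naming rule, among them Rmrp (2.02 ± 0.31, adjusted p = 0.0139), Rnu12 (1.52 ± 0.25, 0.02495) and Ptgds (-0.82 ± 0.13, 0.0209). Values are differences of log2 fold changes, 6 weeks minus 1 week, with SE. Among the named small RNAs these were 1.25 ± 0.15 for Gm26448 (adjusted p = 0.00381), 1.25 ± 0.19 for Gm25395 and 1.06 ± 0.16 for Gm24119 (adjusted p = 0.0139 for both), 1.14 ± 0.19 for Rnu3a (0.0252), 0.99 ± 0.17 for Scarna6 (0.0309) and 1.03 ± 0.19 for Gm24265 (0.0365). In each of the 6, the mean was higher with SR9009 than with vehicle at 6 weeks and lower at 1 week.

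Among protein-coding genes, the difference was 1.31 ± 0.19 for Ccdc107 (adjusted p = 0.0139), whose reads overlap Rmrp, 0.82 ± 0.15 for Nav2 and 0.57 ± 0.10 for Lrrtm2 (adjusted p = 0.0365 for both). Ccdc107 averaged 315 ± 62.5 CPM with SR9009 and 416 ± 14.2 CPM with vehicle at 1 week (SD, n = 4 each). For Nav2 these means were 91.3 ± 2.71 CPM with SR9009 and 108 ± 10.3 CPM with vehicle. Jun, an immediate early transcription factor, differed by 0.69 ± 0.12 (adjusted p = 0.0365): it averaged 83.4 ± 7.38 CPM with SR9009 and 62.9 ± 6.46 CPM with vehicle at 6 weeks, and 80.6 ± 7.17 CPM with SR9009 and 97.7 ± 8.35 CPM with vehicle at 1 week, but did not pass at 6 weeks alone (log2 fold change 0.41 ± 0.09, adjusted p = 0.0888).

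Vamp3, Ugp2 and Ackr4 had the opposite sign, with differences of -0.59 ± 0.10 for Vamp3 (adjusted p = 0.0309), -0.57 ± 0.10 for Ugp2 (0.0365) and -0.54 ± 0.09 for Ackr4 (0.0309). At 1 week, Vamp3 averaged 87.1 ± 7.58 CPM with SR9009 and 76.8 ± 3.39 CPM with vehicle, and Ackr4 43.2 ± 1.01 CPM with SR9009 and 38.5 ± 2.55 CPM with vehicle (SD, n = 4 each). All 3 were lower with SR9009 at 6 weeks and higher at 1 week.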

How the results depend on the processing

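The 14 coding genes kept their direction under every alternative run, and the 13 small RNAs under all but the one for protein-coding genes alone, which does not hold them, but the number passing varied. Against 27 genes passing, DESeq2 gave 259 (105 higher, 154 lower), no filter on low counts 229 (77 higher, 152 lower), voom with quality weights 2065 (973 higher, 1092 lower), and the 6 libraries alone or the library total as a covariate 0 (edgeR; 2413 and 1190 genes at an unadjusted p under 0.05). Higher genes were 70.4% of calls, against 40.5% with DESeq2, 33.6% without a filter, 47.1% with voom and 42.2% without vehicle 1. DESeq2's size factors in edgeR, a filter at 1 CPM and dropping genes marked HIDATA in any of the 17 libraries gave 27 to 29. Testing protein-coding genes alone, an alternative chosen after seeing the data, gave 3 (2 higher, 1 lower). Leaving out 1 library of these groups gave 2 to 1518: 2 without SR9009 1, SR9009 2 or vehicle 2, 41 without SR9009 3, 6 without vehicle 3 and 1518 without vehicle 1. Deviations of same-numbered libraries from their group means had correlations of 0.05, -0.01 and 0.07. Those of the other pairs lay between -0.08 and 0.03. With so few libraries a group, these values cannot tell whether the numbers pair the samples. A replicate block gave 12 genes (11 higher, 1 lower). For the difference between 6 weeks and 1 week, 19 passed, against 198 with DESeq2, 102 without a filter, 839 with voom, 6 with the replicate block, 0 with the library total as a covariate (552 at an unadjusted p under 0.05), 1 for protein-coding genes alone, and 1 to 957 when 1 library was left out (1 without 6-week SR9009 1, 45 without 6-week SR9009 3, 44 without 1-week vehicle 4, 957 without 6-week vehicle 1, and 7 to 18 without any other). Of 59 named genes that did not pass, 43 passed with voom weights, 37 without vehicle 1, 16 without a filter and 14 with DESeq2. The cause was not tested. Low genes such as Il1b and Gdf15 rest on few fragments, which limits their precision.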

Other observations

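Further gene groups of stress and growth held 1 member that passed in edgeR at 6 weeks, Angptl7, which the list of 22 angiogenesis genes includes. That list had a median log2 fold change, SR9009 over vehicle, of 0.09. Without vehicle 1, 7 of its members passed as higher and 2 as lower, beside 3.98% and 5.45% of all genes. The endothelial receptor gene Tek was at 128, 118 and 120.3 CPM in SR9009 hearts, against 113, 99.7 and 104 CPM in vehicle hearts. For Tek the log2 fold change was 0.21 (adjusted p = 0.162, and 0.0394 without vehicle 1). The 28 cell cycle genes had a median of -0.51, with 25 below 0, 9 lower without overlap, and 0 passing with or without vehicle 1. Among all genes, 7882 of 15919 were below 0 and 9.2% lay lower without overlap. Rrm2, a subunit of ribonucleotide reductase, was at 2.04, 2.46 and 1.89 CPM in SR9009 hearts, against 3.40, 4.45 and 3.35 CPM in vehicle hearts. For Rrm2 the log2 fold change was -0.82 (adjusted p = 0.317). Cenpf, a kinetochore protein, was at 34.7, 52.6 and 32.6 CPM in SR9009 hearts, against 31.9, 31.4 and 29.8 CPM in vehicle hearts. For Cenpf the log2 fold change was 0.36 (adjusted p = 0.345). Of 27 inflammation genes, 21 could be tested, with a median of -0.19 and 0 passing. Nfkbia, an inhibitor of NF-kappaB, was at 32.8, 31.4 and 39.2 CPM in SR9009 hearts, against 28.1, 58.4 and 67.4 CPM in vehicle hearts. For Nfkbia the log2 fold change was -0.57 (adjusted p = 0.190, and 4.59e-05 without vehicle 1).

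At an unadjusted p under 0.05 in edgeR, 6 angiogenesis genes were higher and 2 lower, 1 cell cycle gene was lower, and 2 inflammation genes were higher and 4 lower. DESeq2 called 1 angiogenesis gene, lower, and 0 in the other 2 lists. Without vehicle 1, edgeR called 2 inflammation genes higher and 5 lower, beside 3.98% and 5.45% of all genes.

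The 17 immediate early genes had a median of 0.11, which was -0.10 without vehicle 1, and 0 passed. Jun was at 91.9, 78.99 and 79.2 CPM in SR9009 hearts, against 55.5, 65.6 and 67.6 CPM in vehicle hearts (log2 fold change 0.41, adjusted p = 0.0888, and 0.0499 without vehicle 1), higher in every SR9009 library. Ier3 was at 20.5, 20.1 and 19.5 CPM in SR9009 hearts, against 18.8, 44.2 and 44.5 CPM in vehicle hearts. For Ier3 the log2 fold change was -0.84 (adjusted p = 0.139, and 0.000567 without vehicle 1). The 23 tested genes of the unfolded protein and integrated stress responses had a median of -0.02 and 0 passing. The stress hormone gene Gdf15 was low, at 0.798, 0.534 and 0.377 CPM in SR9009 hearts, against 1.16, 3.51 and 3.68 CPM in vehicle hearts. For Gdf15 the log2 fold change was -2.29 (adjusted p = 0.0783, and 0.000581 without vehicle 1). Chac1, which degrades glutathione, was at 1.06, 1.60 and 1.66 CPM in SR9009 hearts, against 1.66, 5.39 and 4.48 CPM in vehicle hearts. For Chac1 the log2 fold change was -1.40 (adjusted p = 0.112, and 0.000900 without vehicle 1). For Gdf15 all SR9009 libraries lay below all vehicle libraries.

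Heat shock genes had a median of 0.00 over 20 members and 0 passing, with -0.34 for Hspb6 (adjusted p = 0.110, and 0.0125 without vehicle 1) and -0.25 for Cryab (adjusted p = 0.178), both small heat shock proteins. The 20 autophagy and mitophagy genes had a median of -0.05 and 0 passing, with -0.27 for the mitophagy receptor Bnip3 (adjusted p = 0.204, and 0.00236 without vehicle 1) and 0.16 for Map1lc3a (adjusted p = 0.322). Over 15 tested muscle ubiquitin ligase and FOXO genes the median was 0.03 and 0 passed. Sesn1, a stress-induced inhibitor of mTORC1, was at 134, 139.8 and 137 CPM in SR9009 hearts, against 152, 206 and 228 CPM in vehicle hearts. For Sesn1 the log2 fold change was -0.51 (adjusted p = 0.113, and 0.00250 without vehicle 1). Ddit4, another such inhibitor, was at 24.8, 19.1 and 39.2 CPM in SR9009 hearts, against 22.9, 85.4 and 85.5 CPM in vehicle hearts. For Ddit4 the log2 fold change was -1.21 (adjusted p = 0.130, and 0.000172 without vehicle 1). Unadjusted p-values under 0.05 were found for 3 higher and 3 lower immediate early genes, 5 lower genes of the stress responses, 5 lower heat shock genes, 1 lower autophagy gene, and 1 higher and 2 lower FOXO genes. DESeq2 called 2, 1, 1, 0 and 1 genes of these lists. Without vehicle 1, edgeR called 2 immediate early genes higher and 4 lower, and, all lower, 4 genes of the stress responses, 3 heat shock genes, 2 autophagy genes and 2 FOXO genes. In that fit 3.98% of all genes were called higher and 5.45% lower.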
